A study of Mus musculus with 28 samples.

Results

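The mouse mammary cancer line 4T1 was compared with the untransformed mammary line HC11 across all genes, with attention to the genes that set the identity of a line: transcription factors, receptors, surface proteins and secreted proteins. The comparison took every 4T1 library (8) and every HC11 library whose treatment label was DOX alone (10), which together were 18 of the 28 libraries of the series. The other 10 were HC11 libraries labelled DOX plus DIP, and they enter below as levels, in the choice of genes for part of the carry-over check, and in 1 alternative fit. All 28 libraries carried the DOX label, and the labels spell out neither DOX nor DIP. The labels describe HC11 by the genotype "untransformed" and 4T1 by the genotype "cancer", and call both mammary epithelial cells. Each group is 1 cell line, so that the line and the cancer genotype cannot be told apart. No label names a culture, batch or replicate, so p-values measure the spread between libraries, which may be technical.

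HC11 is an established line derived from the mammary gland of a pregnant mouse, and it is a common model of the mammary progenitor because it grows as an undifferentiated epithelium and makes milk protein once given lactogenic hormones. 4T1 was isolated from a mammary tumour of a BALB/c mouse and spreads to distant organs when it is grafted into that strain. The mammary epithelium has an inner luminal layer, marked by keratins 8, 18 and 19, and an outer basal layer, marked by keratins 5 and 14 and by the transcription factor p63. Vimentin and nestin are intermediate filaments of mesenchymal and progenitor cells, and mesothelin is a surface protein that many carcinomas carry.

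The promoters of 5 genes that separate the lines are shown because they mark the range of promoter types found among them: a basal keratin held by HC11 (Krt5), the intermediate filaments Vim and Nes and the ligand Wnt7a held by 4T1, and Hoxa5, a homeobox gene higher in 4T1. Each is the stretch of 250 bases that ends at the RefSeq start of the gene in build GRCm38.p6, written along the strand of the gene, and CG dinucleotides are in capitals. The stretch of Krt5 is chr15:101712906-101713155 (minus strand), that of Vim is chr2:13574061-13574310 (plus), that of Nes is chr3:87970843-87971092 (plus), that of Wnt7a is chr6:91411354-91411603 (minus) and that of Hoxa5 is chr6:52204588-52204837 (minus).
Krt5: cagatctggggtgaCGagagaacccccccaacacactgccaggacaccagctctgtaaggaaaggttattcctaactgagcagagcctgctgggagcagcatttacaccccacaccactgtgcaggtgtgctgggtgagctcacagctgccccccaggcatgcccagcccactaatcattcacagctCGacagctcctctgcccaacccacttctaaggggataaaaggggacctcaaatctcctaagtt
Vim: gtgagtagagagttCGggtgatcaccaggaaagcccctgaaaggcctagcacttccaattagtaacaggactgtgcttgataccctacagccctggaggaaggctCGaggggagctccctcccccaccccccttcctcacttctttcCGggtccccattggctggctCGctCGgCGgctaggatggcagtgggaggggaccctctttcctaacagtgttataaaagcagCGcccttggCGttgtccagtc
Nes: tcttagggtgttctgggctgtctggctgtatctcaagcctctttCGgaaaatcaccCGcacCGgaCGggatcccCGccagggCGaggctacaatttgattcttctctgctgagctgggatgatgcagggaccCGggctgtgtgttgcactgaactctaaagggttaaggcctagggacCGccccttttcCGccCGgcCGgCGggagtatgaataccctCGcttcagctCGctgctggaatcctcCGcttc
Wnt7a: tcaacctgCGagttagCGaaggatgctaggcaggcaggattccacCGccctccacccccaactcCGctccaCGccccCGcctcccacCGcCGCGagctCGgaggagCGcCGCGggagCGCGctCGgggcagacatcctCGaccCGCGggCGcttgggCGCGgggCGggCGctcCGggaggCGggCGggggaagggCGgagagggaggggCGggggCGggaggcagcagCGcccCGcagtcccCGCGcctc
Hoxa5: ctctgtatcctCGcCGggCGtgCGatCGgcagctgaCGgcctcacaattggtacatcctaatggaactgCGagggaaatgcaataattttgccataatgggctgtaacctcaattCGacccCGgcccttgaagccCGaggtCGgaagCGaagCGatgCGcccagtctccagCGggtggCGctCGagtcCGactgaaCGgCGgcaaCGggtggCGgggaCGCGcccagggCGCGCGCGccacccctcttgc
The Krt5 stretch held 2 CG dinucleotides and that of Vim held 8. Those of Nes, Hoxa5 and Wnt7a held 15, 28 and 34. The letters TATAAA, searched on both strands, occurred in that of Vim only. Trp63, Krt19, Msln and Hoxb9 were not in the promoter table.

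The lines differed at most genes. By edgeR's quasi-likelihood test at an adjusted p of 0.05, 69.9% of the 23875 genes with enough counts to test were called, 34.3% higher in 4T1 and 35.6% lower. Of the called genes, 49.0% were the higher ones, or 35.9% with library sizes in place of TMM factors, under which the median log2 fold change of all genes moved from -0.01 to -0.24. A stricter rule, called and at least 4-fold apart, is given for classes and for most families. By that rule 3888 genes (16.3%) differed, 1314 (5.5%) higher and 2574 (10.8%) lower in 4T1. The ranges of the 8 and the 10 libraries did not overlap for 8834 genes (37.0%). In what follows, levels are CPM, the counts of a gene scaled to the size of its library, given as the lowest, the median and the highest library. Fold changes are those of the fit, and log2 fold changes carry their standard error.

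Genes of the 4 identity classes passed the 4-fold rule more often than genes at large, in both directions. Of 427 tested transcription factors, 51 were at least 4-fold higher and 110 lower in 4T1. Of 287 receptors, 41 were higher and 80 lower. Of 318 surface genes, 49 were higher and 98 lower. Of 428 secreted genes, 62 were higher and 143 lower. The shares were 11.9%, 14.3%, 15.4% and 14.5% higher, and 25.8%, 27.9%, 30.8% and 33.4% lower, beside 5.5% and 10.8% of all genes. The median log2 fold change was -0.52 for transcription factors, -0.47 for receptors, -0.35 for surface genes and -0.49 for secreted genes. In each class there were more falls than rises of this size. These classes were chosen with earlier results of these data known, and their shares are a description.

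The 6 genes that mark the lines lay far apart. Msln stood at 305, 358 and 454 CPM in 4T1 and at 0.225, 0.297 and 0.99 CPM in HC11, a log2 fold change of 9.62 ± 0.34 (adjusted p = 6.34e-15). Nes stood at 180.5, 245 and 296 CPM in 4T1 and at 0.169, 0.88 and 1.71 CPM in HC11 (8.23 ± 0.43, adjusted p = 1.66e-12). Krt19, a keratin of the luminal layer, stood at 84.5, 117 and 201 CPM in 4T1 and at 0.172, 0.434 and 1.77 CPM in HC11 (7.59 ± 0.45, adjusted p = 1.02e-11). Every 4T1 library lay above every HC11 library for these genes and for Vim, which ranged from 2976 to 4378 CPM in 4T1 and from 5.24 to 47.6 CPM in HC11. Trp63, the gene of p63, ran the other way, at 0.519, 0.669 and 3.62 CPM in 4T1 and 58.7, 79.9 and 121 CPM in HC11 (-6.06 ± 0.45, adjusted p = 3.09e-10, and -7.02 without 4T1 libraries 1 and 2). Krt5 fell with it, from a median of 2624 CPM in HC11 to 14.6 CPM in 4T1. In all 18 libraries the marker levels were on the side of the line label, with no overlap for any of the 6 genes. These genes were chosen as markers with earlier results of these data known. Their separation and p-values therefore describe the lines and do not test their identity. In RNA from whole cultures, fewer cells that make a transcript and less of it per cell cannot be told apart.

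**Figure D1:**
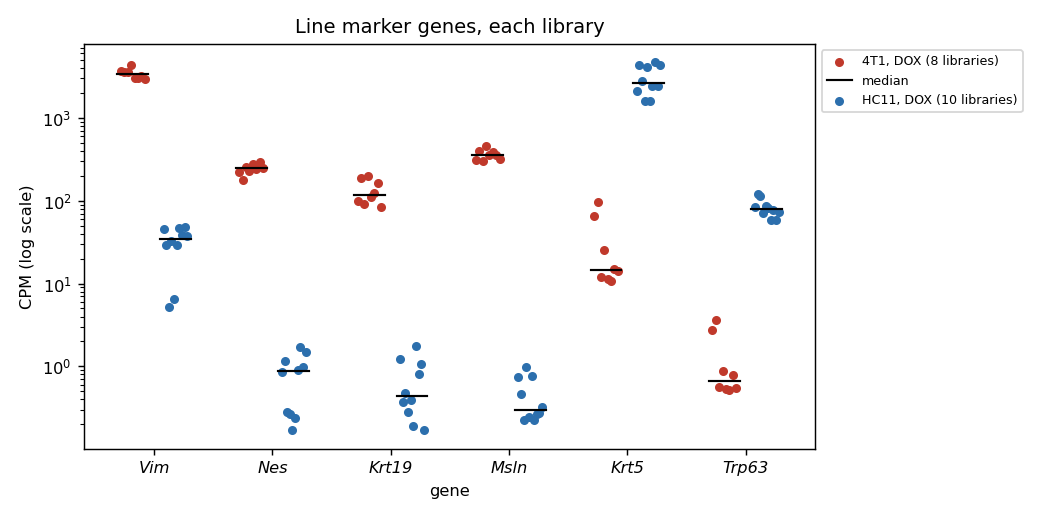
Levels of the 6 marker genes in each of the 18 libraries, in CPM on a log axis, with 4T1 in red, HC11 in blue and the group median as a black line. Vim, Nes, Krt19 and Msln are higher in all 8 4T1 libraries, Krt5 and Trp63 are higher in all 10 HC11 libraries, and 2 4T1 libraries stand above the other 6 for Krt5 and Trp63.

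Genes that HC11 held had low counts in the 4T1 libraries, and their levels were highest in libraries 1 and 2. Over 130 genes above 10 CPM in HC11 and at most 2% of that level in 4T1 libraries 3 to 8, the median gene stood at 4.33% of its HC11 level in 4T1 library 2 and at 3.01% in library 1. The 6 libraries used to choose the genes were lower, where the limit of 2% required low values, with 1.25% in library 4 and the rest from 0.48% to 0.825%. The quartiles were narrow, 3.64% to 4.92% in library 2 and 2.48% to 3.45% in library 1. Single genes varied more. In library 2 Krt5 was at 3.13% of its HC11 level, Trp63 at 4.37%, Cdh2 at 3.94% and Runx3 at 4.02%, but Col3a1 at 1.01%, Slpi at 8.22% and Trp73 at 9.25%. Over 52 genes that HC11 made at least 4-fold more with DIP, the median in libraries 1 and 2 was 0.835% and 0.964% of the DOX plus DIP level, and 9.57% and 12.5% of the DOX level. Over 25 genes at least 4-fold higher in HC11 without DIP it was 2.44% and 3.34% of the DOX level, and 14.0% and 20.2% of the DOX plus DIP level. Libraries 3 to 8, in which both sets were chosen to be low, were not at 0. There the 52 genes had medians of 0.183% to 0.468% of the DOX plus DIP level and 2.58% to 6.81% of the DOX level. The 25 genes had medians of 0.352% to 0.895% of the DOX level and 2.29% to 5.53% of the DOX plus DIP level. The reverse signal was lower than that in 4T1 libraries 1 and 2. In the HC11 DOX libraries 59 genes of 4T1 stood at medians of 0.1% to 0.537% of their 4T1 level, highest in library 1. For 14 genes above 50 CPM in 4T1 the medians were 0.305% to 0.961%.

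**Figure D2:**
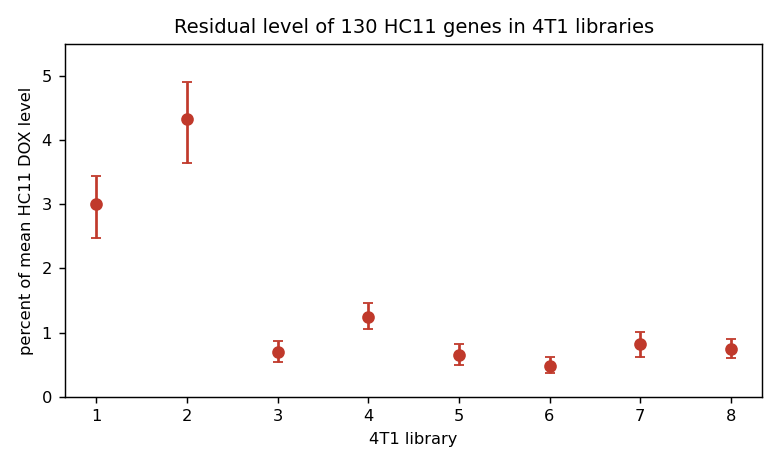
Level of 130 HC11 genes in each 4T1 library as a percentage of their mean in HC11 DOX, with the median as a point and the quartiles as bars. Libraries 1 and 2 stand at 3.01% and 4.33%, library 4 at 1.25% and the other 5 below 0.83%.

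The size of the largest falls in 4T1 moved with those libraries, while rises did not. For 843 genes at least 32-fold lower in 4T1, the median log2 fold change was -5.91 with all libraries and -6.68 without libraries 1 and 2. For 395 genes at least 32-fold higher it was 6.78 and 6.79. Falls of more than 20-fold are therefore also given without those libraries, and every such fall named was called both ways. The source of the counts of HC11 genes in these libraries was not tested.

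Some genes were held by 1 line almost alone. By the rule of at least 5 CPM in every library of 1 line and a median of at most 1% of that in the other, 106 genes were 4T1-only and 121 were HC11-only. The 4T1-only set held 5 transcription factors (Etv1, Sox12, Foxc2, Zic5 and Gata4), 4 receptors (Ddr2, Scara3, Ephb2 and Htr5b), 7 surface genes and 9 secreted genes. The HC11-only set held 21 transcription factors, among them Trp63, Id4, Runx3, Snai2, Tfap2b, Tfap2c and Hoxb9. It held 1 receptor (Fgfr1), 9 surface genes and 15 secreted genes. Both sets were drawn from all 56748 genes. For scale, the 22766 tested genes with a symbol held 427 transcription factors, 287 receptors, 318 surface genes and 428 secreted genes. Without 4T1 libraries 1 and 2 the HC11-only set grew to 149 genes, and the 4T1-only set to 108. Of the promoters with a single listed start, those of 4T1-only genes had a median of 14.5 CG dinucleotides in the 250 bases before the start (48 of 105 genes with a symbol). Those of HC11-only genes had 8 (55 of 120 genes), and those of all genes tested had 15 (9807 of 22766). TATAAA occurred on either strand in 10.4%, 7.3% and 7.3% of these stretches, which were 5 of 48, 4 of 55 and 718 of 9807. The first 2 shares rest on few promoters.

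Among transcription factors with a log2 CPM averaging 2 or more over the 18 libraries, Foxc2, Etv1, Sox12 and Zeb2 rose most in 4T1. Foxc2, a forkhead factor of mesenchymal and vascular development, stood at 10.3, 12.7 and 15.6 CPM in 4T1 and at 0, 0.012 and 0.0544 CPM in HC11, a log2 fold change of 9.61 ± 0.42 (adjusted p = 1.24e-13). Etv1, an ETS factor that acts downstream of growth factor signals, stood at 17.1, 21.5 and 24.1 CPM in 4T1 and at 0, 0.0529 and 0.305 CPM in HC11 (8.01 ± 0.47). Sox12 stood at 16.1, 18.5 and 25.1 CPM against 0, 0.0806 and 0.342 CPM (7.22 ± 0.55). Zeb2, a repressor of E-cadherin that drives the epithelial to mesenchymal transition, stood at 15.7, 17.5 and 21.8 CPM against 0.118, 0.175 and 0.539 CPM, a 64.2-fold rise (adjusted p = 2.66e-12). For all 4 genes the 2 lines did not overlap, which the naming rule required. It required this of every gene named as a largest change of its class, family or list.

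The other genes of that transition did not move as a group. Snai2, the gene of Slug, was lower in 4T1, at 0.157, 0.345 and 1.97 CPM against 26.2, 41.4 and 64.1 CPM in HC11, a 70.5-fold fall (134-fold without 4T1 libraries 1 and 2). Snai1 did not pass the test (log2 fold change 0.14 ± 0.22, adjusted p = 0.578), and neither did Zeb1 (0.04 ± 0.67, adjusted p = 0.966). Zeb1 ranged from 0.0169 to 4.42 CPM over the HC11 libraries and from 0.901 to 1.81 CPM in 4T1, and it was higher in 4T1 without HC11 libraries 4 and 6 (1.48, adjusted p = 0.0128). The epithelial factors Grhl1 and Ovol2 fell 13.8-fold and 10.6-fold. Cdh1, the gene of E-cadherin itself, stood at 299, 365 and 416 CPM in 4T1 and 276, 328 and 401 CPM in HC11 and did not pass the test (adjusted p = 0.354). Snai1, Zeb1, Ovol2 and Cdh1 were chosen after their values were seen.

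By the same expression limit, Tfap2b, Sox6, Bcl11b and Hoxb9 fell most. Tfap2b, an AP-2 factor, stood at 0.0751, 0.164 and 0.682 CPM in 4T1 and at 13.7, 17.9 and 34.0 CPM in HC11, a 93.8-fold fall (154-fold without 4T1 libraries 1 and 2, adjusted p = 4.25e-11 in the full fit). Sox6 stood at 0.133, 0.204 and 1.08 CPM against 13.4, 38.6 and 51.7 CPM, and Bcl11b, a zinc finger factor of T cells, skin and mammary basal cells, at 0.0121, 0.095 and 0.319 CPM against 6.48, 8.61 and 16.5 CPM. Their falls were 89.9-fold and 89.8-fold (163-fold and 151-fold without libraries 1 and 2). Tfap2c fell 69.1-fold (115-fold), Runx3 75.9-fold (145-fold), Irx5 79.0-fold (147-fold), Barx2 81.2-fold (150.5-fold), Foxd1 77.6-fold (141-fold) and Tbx18 63.5-fold (133-fold). The range of 4T1 lay below that of HC11 for each of these 9 genes, as the naming rule required. All 3 members of the p53 family, Trp63, Trp73 and Trp53, were called lower, 2 of them by the 4-fold rule. Of all genes 35.6% were called lower and 10.8% by the 4-fold rule. Trp73 stood at 0, 0.0179 and 0.238 CPM against 0.43, 3.56 and 5.06 CPM, and its log2 fold change of -5.83 became -7.10 without 4T1 library 2 and -7.64 without libraries 1 and 2. Trp53 stood at 36.2, 47.9 and 52.1 CPM against 93.7, 149 and 159.8 CPM, a 2.88-fold fall. Trp73 was chosen after its values were seen.

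Of the regulators of luminal cells and hormone response, Gata3 and Foxa1 rose while Elf5 and Vdr fell. Gata3, the factor that specifies luminal cells, stood at 66.0, 73.2 and 98.0 CPM in 4T1 and 11.3, 13.4 and 13.9 CPM in HC11, a 5.65-fold rise (adjusted p = 2.4e-16). Foxa1, which opens chromatin for the estrogen receptor, rose 30.2-fold but stayed low, at 1.27, 1.7 and 2.18 CPM. Elf5, the factor of alveolar progenitors, fell 49.5-fold (70.0-fold without 4T1 libraries 1 and 2) from a median of 1.59 CPM to 0.0309 CPM. Esr1, the gene of the estrogen receptor, stood at 3.12, 3.53 and 4.91 CPM in 4T1 and 0.683, 1.52 and 5.77 CPM in HC11 and did not pass the test (adjusted p = 0.0954). It passed without HC11 library 6 (log2 fold change 1.00, adjusted p = 0.0116). The vitamin D receptor gene Vdr fell 48.8-fold (74.5-fold without 4T1 libraries 1 and 2), from 418 to 6.14 CPM at the median. Nr3c1, the glucocorticoid receptor gene, fell 1.37-fold, with overlapping ranges. Nr3c1 was chosen after its values were seen.

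Several factors of other lineages were present in 4T1 and near 0 in HC11. Gata4, a factor of heart and endoderm, stood at 6.23, 7.25 and 8.43 CPM in 4T1 and 0, 0.0203 and 0.0755 CPM in HC11 (log2 fold change 8.44 ± 0.43, and 9.05 without HC11 libraries 4 and 6). Irf8, a myeloid factor, stood at 4.14, 5.91 and 6.49 CPM against 0, 0.012 and 0.0508 CPM. Eomes, a factor of mesoderm and T cells, stood at 5.84, 7.12 and 8.26 CPM against 0.0163, 0.105 and 0.204 CPM. Pou4f1, a factor of sensory neurons, stood at 4.49, 6.86 and 7.41 CPM against 0.101, 0.238 and 0.391 CPM. Zic5 stood at 7.15, 8.92 and 12.3 CPM against 0, 0 and 0.0225 CPM. Tlx3, a homeobox gene of neurons, stood at 1.79, 2.1 and 3.04 CPM in 4T1 and had no count in any HC11 DOX library. Against 3 counts over that group, which a count of 0 allows, it was at least 1244-fold higher in 4T1. All 6 genes separated the lines without overlap, and they were chosen after their values were seen. The chromatin protein genes Hmga1 and Hmga2 rose 25.4-fold and 18.1-fold, from 34.8 to 925 CPM and from 6.26 to 125 CPM at the median, and Hmga2 was chosen in the same way. Their transcripts are abundant in embryonic cells and in many tumours.

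**Figure D3:**
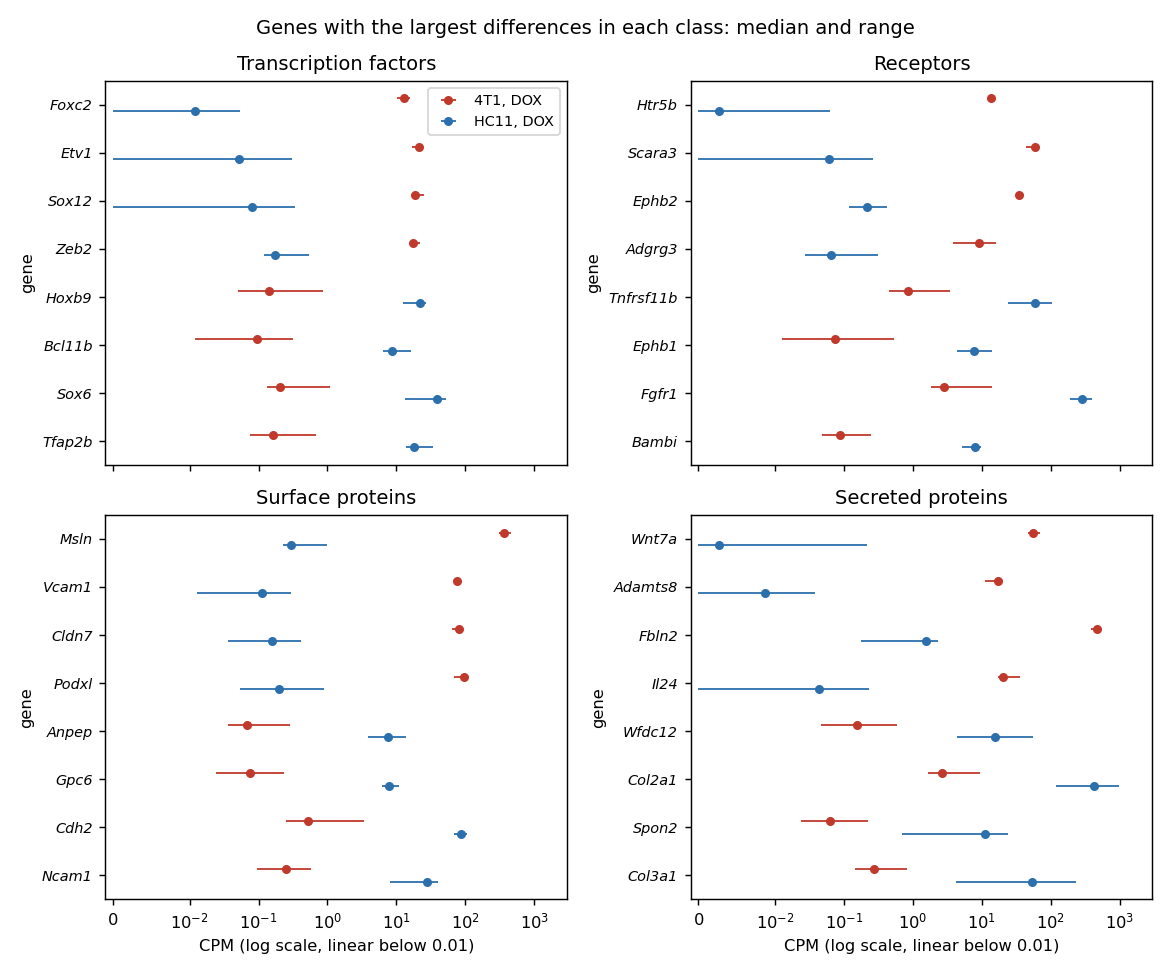
The 4 largest rises and the 4 largest falls in each class by the naming rule, with the median as a point and the range over libraries as a line, in CPM on an axis that is logarithmic above 0.01. The 2 lines do not overlap for any of the 32 genes, which the naming rule required. The 4T1 ranges are wide where the 4T1 level is low, as for Hoxb9 (0.05 to 0.851 CPM) and Cdh2 (0.254 to 3.35 CPM).

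HOX genes, which record position along the body axis, differed between the lines by cluster among those tested. Of 39 HOX genes, 26 were tested. By the 4-fold rule 9 of them were higher in 4T1 and 13 lower, where 5.5% and 10.8% of all genes were. Clusters A to D hold 11, 10, 9 and 9 HOX genes, of which 9, 8, 6 and 3 were tested. By the same rule 6 tested genes were higher in cluster A, 8 lower in B, 5 lower in C and 3 higher in D. The median log2 fold change of the tested genes was 2.27 in cluster A, -6.24 in cluster B, -5.20 in cluster C and 9.63 in cluster D. A gene near 0 in 1 line, such as Hoxd3, Hoxd4, Hoxd8 or Hoxc13, passed the count filter only through the other line, which fixed its direction. The counts and medians of clusters C and D are therefore a description.

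In cluster A, Hoxa5 stood at 64.9, 95.7 and 137 CPM in 4T1 and at 2.96, 3.93 and 7.27 CPM in HC11, a 19.7-fold rise (adjusted p = 2.46e-12). Its promoter is among those printed above. Hoxa10 stood at 13.5, 15.8 and 18.5 CPM against 0, 0.18 and 0.805 CPM (log2 fold change 5.91 ± 0.63, and 6.77 without HC11 libraries 4 and 6). Hoxa9 stood at 1.49, 1.56 and 1.89 CPM against 0, 0.0389 and 0.201 CPM (4.71 ± 0.47, and 5.53 without those libraries). Hoxa7 rose 10.3-fold, Hoxa6 4.83-fold and Hoxa2 4.76-fold, while Hoxa3 rose 1.91-fold. Hoxa4 was the exception, at 0.936, 1.31 and 2.1 CPM in 4T1 and 2.87, 3.43 and 4.46 CPM in HC11. The 2 lines did not overlap for any tested gene of this cluster.

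In cluster B, Hoxb9 stood at 0.05, 0.139 and 0.851 CPM in 4T1 and at 12.3, 22.3 and 26.6 CPM in HC11, an 82.9-fold fall (154-fold without 4T1 libraries 1 and 2). The other 7, Hoxb2 to Hoxb8, fell between 62.8-fold (Hoxb7) and 124-fold (Hoxb5), and between 82.4-fold and 217-fold without those libraries. Hoxb2 had a median of 15.5 CPM in HC11 and 0.153 CPM in 4T1, and Hoxb3 had 14.7 and 0.115 CPM. All 8 were present in every HC11 library and below 1 CPM in every 4T1 library. Cluster D ran the opposite way at low levels. Hoxd4 stood at 1.5, 2.16 and 2.41 CPM and Hoxd3 at 0.392, 0.576 and 0.758 CPM in 4T1, and neither had a count in any HC11 DOX library. Against 3 counts over that group they were at least 1188-fold and at least 337-fold higher. Hoxd8 stood at 0.127, 0.166 and 0.275 CPM in 4T1, with 1 count in all HC11 DOX libraries together. In cluster C every level was below 1.2 CPM in both lines. Hoxc9 stood at 0, 0.0089 and 0.0182 CPM in 4T1 and 0.291, 0.55 and 1.19 CPM in HC11. Hoxc13 had no count in 4T1, at least 54.4-fold below HC11 against 3 counts over the 4T1 libraries. It stood at 0, 0.102 and 0.249 CPM in HC11, so that its ranges overlapped. Hoxc6 was the least changed, 3.14-fold lower with overlapping ranges. All HOX genes named here, except Hoxb2, Hoxb4 and Hoxb9, were chosen after their values were seen.

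**Figure D4:**
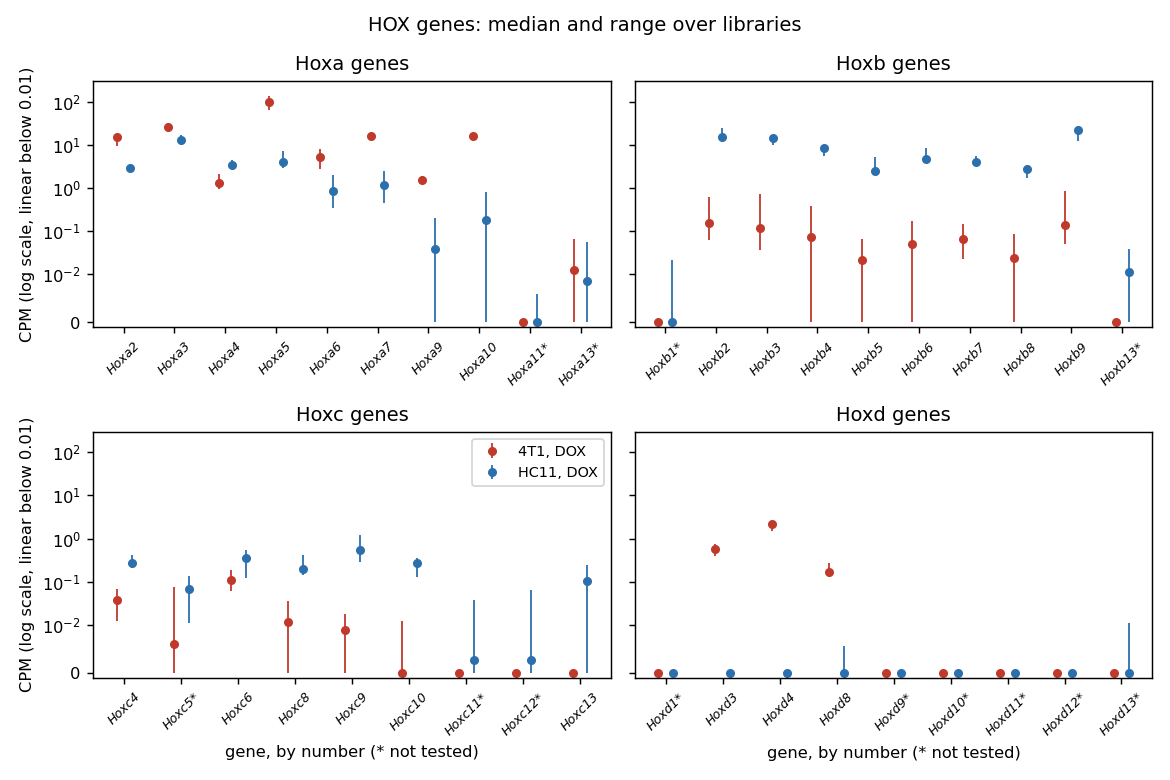
HOX genes by cluster and number, with the median as a point and the range over libraries as a line, in CPM on an axis that is logarithmic above 0.01, with 4T1 in red and HC11 in blue. The tested cluster A genes shown other than Hoxa4 are higher in 4T1, Hoxb2 to Hoxb9 are higher in HC11, and of cluster D Hoxd3, Hoxd4 and Hoxd8 have counts in 4T1.

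SOX factors moved in both directions. Of 10 tested members 3 were at least 4-fold higher and 6 lower, beside 5.5% and 10.8% of all genes. Sox11, a factor of embryonic progenitors, stood at 0.0906, 0.27 and 1.31 CPM in 4T1 and at 25.3, 40.5 and 49.995 CPM in HC11, an 81.5-fold fall (166-fold without 4T1 libraries 1 and 2). Sox9, a factor of mammary stem cells, fell 6.27-fold from a median of 256 CPM to 46.03 CPM. Sox15 stood at 3.28, 7.25 and 8.42 CPM in 4T1 and 0.118, 0.192 and 0.364 CPM in HC11, and Sox4 rose 2.24-fold. Etv4, an ETS factor like Etv1, rose 4.98-fold from 19.7 to 98.8 CPM. Sox9, Sox4 and Etv4 had ranges that did not overlap between the lines, and Sox9, Sox4 and Sox15 were chosen after their values were seen.

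The tested FGF and EGF receptor genes were lower in 4T1. Of the FGF receptor family 4 of 4 tested members were called lower, 3 of them by the 4-fold rule, where 35.6% and 10.8% of all genes were. Fgfr1 stood at 1.83, 2.87 and 14.4 CPM in 4T1 and at 189.6, 289 and 398 CPM in HC11, a 57.1-fold fall (102-fold without 4T1 libraries 1 and 2, adjusted p = 3.22e-10 in the full fit). Fgfr2 fell 7.46-fold and Fgfrl1, a decoy relative, 8.77-fold. All 3 tested EGF receptor genes were lower as well. Egfr stood at 1.88, 2.53 and 4.83 CPM in 4T1 and 52.7, 59.6 and 83.5 CPM in HC11 (log2 fold change -4.55 ± 0.18, adjusted p = 2.24e-14, and -4.76 without 4T1 libraries 1 and 2), and Erbb3 and Erbb2 fell 3.53-fold and 1.82-fold. The lines did not overlap for any of these 6 genes, as the naming rule required.

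Of 25 other tested receptor tyrosine kinases, 6 were at least 4-fold higher in 4T1 and 5 lower, beside 5.5% and 10.8% of all genes. Ddr2, a collagen receptor of mesenchymal cells, stood at 83.7, 101 and 108 CPM in 4T1 and at 0.549, 0.917 and 2.96 CPM in HC11 (log2 fold change 6.30 ± 0.34). Axl, the receptor of GAS6, stood at 648, 757 and 805 CPM against 43.0, 95.1 and 132 CPM, an 8.08-fold rise. Ltk stood at 12.1, 14.4 and 20.4 CPM against 0.101, 0.192 and 0.289 CPM (6.26 ± 0.23). Met, the receptor of hepatocyte growth factor, did not pass the test, at 95.4, 113 and 122 CPM in 4T1 and 52.6, 109 and 160.3 CPM in HC11 (adjusted p = 0.669). Igf1r fell 1.33-fold with overlapping ranges. Axl and Igf1r were chosen after their values were seen.

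The EPH receptors, which bind membrane-anchored ephrins on neighbouring cells, switched members. Ephb2 stood at 33.0, 34.7 and 41.3 CPM in 4T1 and at 0.119, 0.214 and 0.421 CPM in HC11 (log2 fold change 7.14 ± 0.20, adjusted p = 2.15e-16). Ephb1 stood at 0.0128, 0.0743 and 0.538 CPM in 4T1 and at 4.38, 7.74 and 14.1 CPM in HC11, a 54.2-fold fall (118-fold without 4T1 libraries 1 and 2). Epha2, chosen after its values were seen, rose 5.57-fold to a median of 189 CPM. The ligand gene Efnb2 stood at 70.4, 92.5 and 99.6 CPM in 4T1 and 1.95, 3.03 and 4.22 CPM in HC11 (4.83 ± 0.13). Of 11 tested EPH receptors 3 were at least 4-fold higher in 4T1 and 4 were lower, beside 5.5% and 10.8% of all genes.

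Among receptors with a log2 CPM averaging 2 or more, Htr5b, Scara3, Ephb2 and Adgrg3 rose most. Htr5b, a serotonin receptor gene, stood at 12.8, 13.5 and 15.4 CPM in 4T1 and at 0, 0.00272 and 0.0635 CPM in HC11 (log2 fold change 9.89 ± 0.48, and 10.54 without HC11 library 1). Scara3, a scavenger receptor gene, stood at 44.1, 60.1 and 66.5 CPM against 0, 0.0617 and 0.267 CPM (9.60 ± 0.46). Adgrg3, an adhesion receptor gene, stood at 3.83, 9.08 and 16.3 CPM against 0.027, 0.0642 and 0.311 CPM (6.40 ± 0.46). Eng, the gene of the TGF-beta co-receptor endoglin, rose 43.7-fold from 1.3 to 59.8 CPM. F2r, the thrombin receptor gene, rose 13.1-fold from 4.56 to 65.1 CPM. None of these 5 genes overlapped between the lines, as the naming rule required.

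Among the receptor falls, Bambi, a pseudoreceptor that dampens TGF-beta signals, stood at 0.0491, 0.0874 and 0.246 CPM in 4T1 and at 5.27, 7.96 and 9.71 CPM in HC11, a 74.9-fold fall (105-fold without 4T1 libraries 1 and 2). Tnfrsf11b, the gene of the decoy receptor osteoprotegerin, stood at 0.447, 0.847 and 3.44 CPM against 24.3, 58.9 and 104 CPM, a 51.9-fold fall (88.1-fold). The signalling receptor for the same ligand, Tnfrsf11a, was present in 4T1 only at 0.404 to 1.82 CPM, against a highest HC11 library of 0.0178 CPM. Lifr and Osmr, which bind cytokines of the interleukin 6 family, fell 48.9-fold (80.0-fold) and 13.5-fold. Il27ra, of the same receptor class, stood at 2.25, 3.37 and 4.92 CPM in 4T1 and 0, 0.0238 and 0.0843 CPM in HC11. The WNT receptors Fzd1 and Fzd7 fell 22.5-fold (27.5-fold) and 5.67-fold and Lgr4 12.9-fold. Prlr, the prolactin receptor gene, stood at 0, 0 and 0.05 CPM in 4T1 and 0.0112, 0.262 and 0.832 CPM in HC11, with ranges that overlapped. Its log2 fold change of -4.55 became -5.33 without 4T1 library 3 and -5.07 without 4T1 libraries 1 and 2. Tnfrsf11a and Il27ra were chosen after their values were seen.

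Among surface genes within the same expression limit, Msln, Vcam1, Cldn7 and Podxl rose most in 4T1. Vcam1, an adhesion molecule that binds leukocyte integrins, stood at 71.8, 74.7 and 80.4 CPM in 4T1 and at 0.0128, 0.113 and 0.292 CPM in HC11 (log2 fold change 9.14 ± 0.32, adjusted p = 4.55e-15). Cldn7, a tight junction claudin of simple epithelium, stood at 63.5, 81.4 and 93.9 CPM against 0.0356, 0.157 and 0.407 CPM (8.78 ± 0.30). Podxl, a sialomucin, stood at 68.8, 96.0 and 107 CPM against 0.0539, 0.198 and 0.883 CPM (8.14 ± 0.47). Itga2, the collagen-binding integrin chain, rose 31.8-fold from 3.12 to 94.8 CPM at the median. The caveola coat genes Cavin1 and Cavin2 rose 97.4-fold and 277-fold, to medians of 424 and 58.4 CPM, and Cavin3 rose 7.25-fold, whereas Cav1, the gene of caveolin itself, fell 2.86-fold. The lines did not overlap for any of these 8 genes, which the naming rule required of all but Cav1. Cav1 was chosen after its values were seen.

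Cadherin and protocadherin genes were often lower in 4T1. Of 18 tested cadherin and desmosomal genes, 2 were at least 4-fold higher in 4T1 and 11 lower, beside 5.5% and 10.8% of all genes. Cdh2, the gene of N-cadherin, stood at 0.254, 0.52 and 3.35 CPM in 4T1 and at 68.3, 85.9 and 104 CPM in HC11, an 83.7-fold fall (180.0-fold without 4T1 libraries 1 and 2). Cdh3, the P-cadherin gene of basal cells, fell 29.7-fold (44.2-fold), Dsg3, a desmoglein of stratified epithelium, 75.2-fold (135-fold) and Fat2 66.2-fold (118-fold). Ncam1, a neural adhesion molecule, stood at 0.0938, 0.248 and 0.582 CPM against 8.2, 27.9 and 40.7 CPM, a 90.1-fold fall (117-fold). Gpc6, a glypican, stood at 0.0242, 0.0745 and 0.238 CPM against 6.18, 7.72 and 10.8 CPM, and Anpep, an aminopeptidase, at 0.0362, 0.0682 and 0.288 CPM against 3.84, 7.59 and 13.8 CPM. Their falls were 81.2-fold (134-fold) and 78.8-fold (114-fold). Of 57 tested protocadherins 22 (38.6%) were at least 4-fold lower in 4T1, where 10.8% of all genes were.

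Surface genes used to sort mammary cells differed too. Mme, the gene of CD10, a basal surface peptidase, stood at 1.79, 3.4 and 21.0 CPM in 4T1 and at 125, 384 and 623 CPM in HC11, a 56.8-fold fall (121-fold without 4T1 libraries 1 and 2). Ly6a and Ly6d, which mark luminal progenitors, fell 36.5-fold (50.2-fold) and 49.1-fold (105-fold). They belong to a family of near-identical genes in part, for which counts are uncertain. Of 16 tested LY6 genes 13 were at least 4-fold lower, beside 10.8% of all genes. Plaur, the urokinase receptor gene of the same family, rose 10.1-fold. Epcam fell 2.66-fold and Cd24a 2.43-fold, while Cd44 rose 3.75-fold from 54.0 to 210.2 CPM. The integrin pair of the hemidesmosome was split: Itgb4 fell 4.51-fold, and Itga6 stood at 100.3, 109 and 156 CPM in 4T1 and 81.1, 117 and 153 CPM in HC11 and did not pass the test (adjusted p = 0.958). Plaur and Cd44 were chosen after their values were seen.

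Antigen presentation genes were the surface family most often higher in 4T1. Of 30 tested MHC and B7 genes, 25 were called higher and 4 lower, where 34.3% and 35.6% of all genes were, and 16 (53.3%) were at least 4-fold higher, beside 5.5% of all genes. The family median was a log2 fold change of 2.31. H2-D1, a classical class I gene, stood at 461, 575 and 743 CPM in 4T1 and at 5.35, 10.5 and 15.6 CPM in HC11 (5.77 ± 0.23, adjusted p = 2.77e-14). H2-K1 rose 9.26-fold and B2m, the shared light chain, 4.54-fold. Class I genes are near-identical to each other and differ between mouse strains, so their counts per gene are uncertain. The checkpoint ligand gene Cd274 rose 3.17-fold but stayed at 1.04 to 1.64 CPM, and Vtcn1, another B7 gene, fell 46.5-fold (66.7-fold without 4T1 libraries 1 and 2). H2-K1, B2m and Cd274 were chosen after their values were seen.

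**Figure D5:**
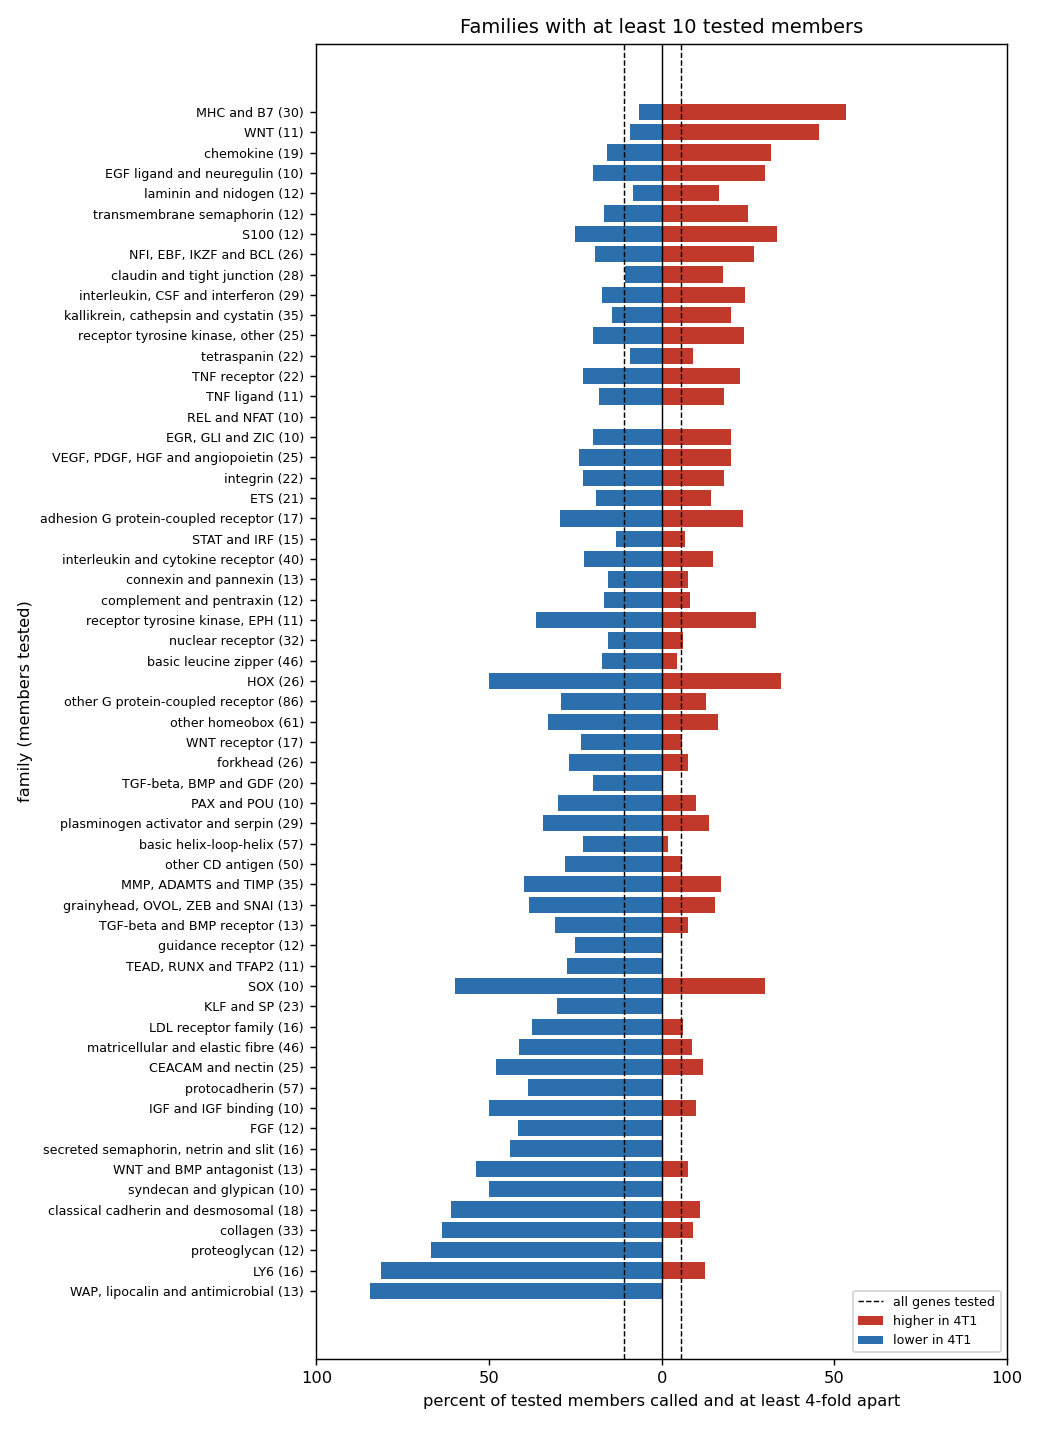
Share of tested members at least 4-fold higher (red, to the right) or lower (blue, to the left) in 4T1 for each family with 10 or more tested members, whose number stands in brackets, with dashed lines at the shares of all genes tested (5.5% and 10.8%). The MHC and B7 family leads on the side higher in 4T1 with 53.3%, and the WAP, lipocalin and antimicrobial family on the lower side with 84.6%.

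Among secreted genes within the expression limit, those that rose most were Wnt7a, Adamts8, Fbln2 and Il24. Wnt7a, a WNT ligand whose promoter with 34 CG dinucleotides is printed above, stood at 47.4, 55.0 and 70.9 CPM in 4T1 and at 0, 0.00272 and 0.216 CPM in HC11. Its log2 fold change was 10.87 ± 0.57 (adjusted p = 1.66e-12), and 12.38 without HC11 library 1, which held 0.216 CPM. Adamts8, a secreted protease gene, stood at 11.3, 17.3 and 20.5 CPM against 0, 0.00873 and 0.0381 CPM (10.37 ± 0.37). Fbln2, a matrix glycoprotein gene, stood at 383, 475 and 536 CPM against 0.179, 1.54 and 2.34 CPM (8.44 ± 0.50). Il24, an interleukin 10 family cytokine gene, stood at 17.4, 20.2 and 35.7 CPM against 0, 0.0443 and 0.229 CPM (8.32 ± 0.46). For all 4, every 4T1 library lay above every HC11 library, as the naming rule required.

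Of 11 tested WNT genes 5 were at least 4-fold higher in 4T1 and 1 lower, where 5.5% and 10.8% of all genes were. Wnt10a rose 25.1-fold from 1.71 to 57.2 CPM (log2 fold change 4.65, and 5.29 without HC11 libraries 4 and 6), and Wnt10b rose 9.14-fold. Wnt4, the ligand that progesterone induces in the mammary gland, stood at 0.0982, 0.221 and 0.782 CPM in 4T1 and 10.5, 14.1 and 30.7 CPM in HC11, a 60.3-fold fall (89.3-fold without 4T1 libraries 1 and 2). Of 13 tested WNT and BMP antagonists 1 was at least 4-fold higher and 7 were lower. Sfrp1, a WNT antagonist, stood at 1.82, 2.39 and 11.3 CPM against 92.4, 167 and 261 CPM, a 40.4-fold fall (69.3-fold). Fst, the gene of the activin antagonist follistatin, stood at 3.68, 4.87 and 11.4 CPM against 142, 242 and 455 CPM, a 44.8-fold fall (59.7-fold). Wnt10b was chosen after its values were seen.

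Of 29 tested interleukin, CSF and interferon genes 7 (24.1%) were at least 4-fold higher in 4T1 and 5 (17.2%) lower, where 5.5% and 10.8% of all genes were. Csf3, the gene of G-CSF, which mobilises neutrophils, stood at 25.4, 29.4 and 37.2 CPM in 4T1 and at 0.142, 0.291 and 0.325 CPM in HC11 (log2 fold change 6.89 ± 0.17, adjusted p = 2.82e-17). Csf1, the macrophage growth factor gene, stood at 187, 208 and 251 CPM against 16.8, 25.1 and 31.0 CPM, an 8.34-fold rise. Csf2 stood at 0.0728 to 0.219 CPM in 4T1 and at most 0.0377 CPM in HC11. Il23a rose 42.7-fold from 0.359 to 18.3 CPM and Tslp, a cytokine of epithelium, 26.6-fold from 0.567 to 13.7 CPM. The 2 lines did not overlap for these 5 genes. Csf1, Csf2 and Tslp were chosen after their values were seen.

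Among 19 tested chemokines 6 (31.6%) were at least 4-fold higher in 4T1 and 3 (15.8%) lower, beside the same shares of all genes. Ccl2, which attracts monocytes, stood at 2.14, 2.9 and 4.05 CPM in 4T1 and at 0, 0.0461 and 0.133 CPM in HC11. Ccl5 rose 9.16-fold from 1.57 to 13.8 CPM. Cxcl12, a chemokine of stromal cells, stood at 0.314, 0.686 and 4.39 CPM in 4T1 and at 37.6, 79.4 and 119 CPM in HC11, a 51.7-fold fall (110.5-fold without 4T1 libraries 1 and 2). Cxcl3, a neutrophil chemokine, stood at 1.07 to 5.16 CPM in 4T1 and at most 0.0404 CPM in HC11. Ccl2 and Cxcl3 were chosen after their values were seen.

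Of 10 tested EGF receptor ligand and neuregulin genes 3 were at least 4-fold higher in 4T1 and 2 lower. The shares of all genes were 5.5% and 10.8%. Hbegf stood at 56.7, 68.3 and 91.5 CPM in 4T1 and at 0.445, 0.959 and 1.75 CPM in HC11 (log2 fold change 6.02 ± 0.24, adjusted p = 2.82e-14), and Areg stood at 10.6, 12.6 and 18.2 CPM against 0.202, 0.571 and 1.14 CPM (4.37 ± 0.32). Nrg1, a ligand of ERBB3, rose 2.4-fold. Ereg, chosen after its values were seen, fell 50.6-fold from a median of 5.29 CPM (89.3-fold without 4T1 libraries 1 and 2). Of the vascular factors, Vegfc stood at 10.3, 14.0 and 16.9 CPM in 4T1 and 0, 0.0854 and 0.54 CPM in HC11, and Pdgfb, also chosen after its values were seen, rose 5.93-fold from 14.7 to 102 CPM.

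Of 33 tested collagens 3 were at least 4-fold higher in 4T1 and 21 (63.6%) lower, where 5.5% and 10.8% of all genes were. Col3a1, a fibrillar collagen, stood at 0.147, 0.274 and 0.814 CPM in 4T1 and at 4.3, 53.4 and 232 CPM in HC11, a log2 fold change of -7.86 ± 0.91 (-7.07 without HC11 libraries 4 and 6 and -8.51 without 4T1 libraries 1 and 2). Col2a1, the collagen of cartilage, stood at 1.69, 2.67 and 9.31 CPM against 119, 429.8 and 996 CPM, and Col11a1, its partner, at 6.87, 11.2 and 60.1 CPM against 1252, 2229 and 2762 CPM. They fell 133-fold and 101-fold (201-fold and 187-fold without 4T1 libraries 1 and 2). Acan, the gene of the cartilage proteoglycan aggrecan, stood at 1.97, 3.73 and 17.6 CPM against 360.3, 529 and 767 CPM, an 83.8-fold fall (147-fold). Col17a1, the hemidesmosome collagen, fell 63.7-fold (124-fold). Col5a1 and Col8a1 went the other way, with rises of 8.96-fold and 4.79-fold to medians of 64.0 and 105 CPM. None of these 7 genes overlapped between the lines. Of 12 tested proteoglycans 8 were at least 4-fold lower, and Spon2, a matricellular gene, fell 147-fold (246-fold) from a median of 11.1 CPM. Col17a1, Col5a1 and Col8a1 were chosen after their values were seen.

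Of 35 tested MMP, ADAMTS and TIMP genes 6 were at least 4-fold higher in 4T1 and 14 lower. The shares of all genes were 5.5% and 10.8%. Mmp9, a gelatinase, stood at 36.0, 60.4 and 81.0 CPM in 4T1 and at 0.0225, 0.135 and 0.705 CPM in HC11 (log2 fold change 8.10 ± 0.47, adjusted p = 9.04e-12). Mmp3, the gene of stromelysin, stood at 7.29, 11.2 and 15.3 CPM against 0.00629, 0.0308 and 0.305 CPM. Plau, the urokinase gene, rose 7.04-fold from 17.5 to 116 CPM. Timp3, a protease inhibitor held in the matrix, stood at 3.73, 6.14 and 38.6 CPM in 4T1 and 580.2, 834 and 938 CPM in HC11, a 63.0-fold fall (131-fold without 4T1 libraries 1 and 2). Serpinb5, the gene of maspin, fell 37.2-fold (47.9-fold). Mmp2 fell 33.6-fold (48.6-fold), so the 2 gelatinase genes went in opposite directions. Plau, Timp3 and Mmp2 were chosen after their values were seen.

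Other secreted families shifted member by member. Igfbp3 and Igfbp5, which bind insulin-like growth factors, fell 109.5-fold (224-fold without 4T1 libraries 1 and 2) and 60.0-fold (107-fold), while Igfbp4 rose 43.4-fold from 12.7 to 673 CPM (log2 fold change 5.44, and 6.09 without HC11 libraries 4 and 6). S100a4, a calcium-binding protein gene of motile cells, stood at 182, 233 and 404 CPM in 4T1 and 2.71, 8.28 and 15.7 CPM in HC11, and S100a6 rose 7.33-fold. Of 13 tested WAP, lipocalin and antimicrobial genes 11 were at least 4-fold lower, beside 10.8% of all genes. Wfdc12 stood at 0.0462, 0.155 and 0.588 CPM in 4T1 and at 4.45, 15.7 and 55.5 CPM in HC11, a 114-fold fall (189.8-fold). Slpi, a secreted protease inhibitor gene, fell 29.8-fold (42.6-fold) from a median of 766 CPM. Igfbp4 and S100a6 were chosen after their values were seen.

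Of 25 tested keratins 4 were at least 4-fold higher in 4T1 and 18 lower, where 5.5% and 10.8% of all genes were. The 4 were Krt7, Krt8, Krt18 and Krt19, keratins of simple epithelium. Krt18 stood at 698, 959.7 and 1093 CPM in 4T1 and at 7.01, 14.9 and 27.6 CPM in HC11, and Krt7 at 807, 1096 and 1272 CPM against 21.0, 25.2 and 70.1 CPM. Krt8 rose 7.55-fold from a median of 140.5 CPM. Krt14, the basal partner of keratin 5, stood at 200.5, 235 and 316 CPM in 4T1 and 1084, 1813 and 2744 CPM in HC11. Its fall of 8.07-fold (8.32-fold without 4T1 libraries 1 and 2) was smaller than that of Krt5, 100.2-fold (206-fold), of Krt6a, 103-fold (220.0-fold), and of Krt17, 38.5-fold (57.3-fold). Of 18 tested basal markers 12 were at least 4-fold lower (median log2 fold change -3.01), and of 18 luminal markers 8 were higher and 5 lower by the same rule (0.88).

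Cdkn2a and Cdkn2b, cell cycle inhibitor genes, stood at 0.632 and 0.122 CPM at the median in 4T1 and 78.6 and 11.4 CPM in HC11, falls of 71.5-fold (125-fold without 4T1 libraries 1 and 2) and 58.6-fold (121-fold). Cdkn2a was at 0.471, 0.632 and 2.89 CPM over the 4T1 libraries. Mtap, which lies beside them, rose 8.64-fold, from 66.3, 78.0 and 89.6 CPM to 636, 685 and 717 CPM (adjusted p = 1.07e-18). Ccnd1, the cyclin D1 gene, rose 5.99-fold, while Rb1 and Ccne1 fell 3.73-fold and 2.68-fold. Mki67, a gene of dividing cells chosen after its values were seen, stood at 333, 431 and 515 CPM in 4T1 and at 87.9, 302 and 398 CPM in HC11, with overlapping ranges (adjusted p = 0.015, or 0.179 with library sizes in place of TMM factors). The HC11 median with DIP was 8.71 CPM. The labels do not call either line proliferating.

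Of 19 tested imprinted genes 1 was at least 4-fold higher in 4T1 and 10 lower, beside 5.5% and 10.8% of all genes. Peg3 stood at 2.83, 4.8 and 30.3 CPM in 4T1 and 334, 716 and 1196 CPM in HC11, an 83.9-fold fall (169-fold without 4T1 libraries 1 and 2). H19 fell 48.5-fold (59.7-fold), and Plagl1 had a log2 fold change of -6.27, which became -7.25 without 4T1 library 2 and -7.88 without libraries 1 and 2. Phlda2 rose 22.1-fold from 0.561 to 15.9 CPM. Xist, the RNA of the inactive X chromosome, stood between 0.184 and 0.476 CPM in 4T1. Of the HC11 libraries, 8 ranged from 1.14 to 6.86 CPM, and libraries 4 and 6 reached 154 and 188 CPM. The log2 fold change was -7.06 ± 1.16 with these libraries (-6.47 without library 4 and -6.23 without library 6) and -4.10 ± 0.31 without both. It was -7.22 without 4T1 libraries 1 and 2.

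Markers of other cell types were read in the same libraries. Over 12 fibroblast markers the summed level was 19.99, 29.4 and 61.7 CPM in 4T1 and 336, 746 and 1183 CPM in HC11. Most of it was Postn (10.2 to 47.2 and 181 to 943 CPM). Of the 9 tested markers 7 were at least 4-fold lower, beside 10.8% of all genes. Pdgfra did not pass the test (adjusted p = 0.459). Thy1, Fap and Dpt had too few counts to test and were near 0 in both lines. Their highest libraries were at 0.0064, 0.172 and 0 CPM in 4T1 and 0.0544, 0.0503 and 0.0254 CPM in HC11. The part of these markers in the falls of matrix genes was not tested. Over 12 leukocyte markers the sum was 15.5, 16.3 and 23.2 CPM in 4T1 and 9.21, 11.5 and 13.2 CPM in HC11, mostly Csf1r and Cd68. Ptprc stood at most at 0.0613 CPM, and Cd3e and Adgre1 had no count in 4T1 and at most 0.0252 and 0.0337 CPM in HC11. Over 8 endothelial markers the sum was 12.5, 14.3 and 23.5 CPM in 4T1, of which Egfl7 was 12.2 to 23.2 CPM, and 3.82, 4.4 and 5.95 CPM in HC11, of which Pecam1 was 3.27 to 5.21 CPM. Cdh5 was at most 0.061 CPM and Kdr at most 0.0123 CPM in either line. Ptprc, Cdh5 and Kdr, which define blood and endothelial cells, were thus at or near 0 in all 18 libraries, while Pecam1 was present in HC11.

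Library depth was high and similar, with 174275141 to 198008179 counts in 4T1 and 135955692 to 185616382 in HC11 DOX. A count of 0 then allows 0.0173 to 0.0192 CPM in a 4T1 library and 0.0161 to 0.0202 CPM in an HC11 library. HC11 libraries 4 and 6 stood apart for Xist and Zeb1, and library 5 had the lowest Mki67.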

How the data were processed

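Gene counts were deposited by the authors as raw counts for each library. The submitters' processing notes name fastp 0.23.2, featureCounts 2.0.1 and build GRCm39. No aligner or strand setting is named in the sources used here. Gene names were matched by identifier for 52073 of 56748 genes. Counts of the 8 4T1 and 10 HC11 DOX libraries were filtered with filterByExpr, scaled with TMM and tested with edgeR 4.0.16 in R 4.3.3 (quasi-likelihood test, Benjamini-Hochberg over 23875 genes, called at an adjusted p under 0.05). Counts were simulated for these 23875 genes, with 77 genes changed 1.5-fold, 60 changed 2-fold and 63 changed 4-fold. Genes of low level were left unchanged. The same steps recovered 63.64%, 86.67% and 96.83% of the changed genes, with 8 false calls. In the real data 69.9% of genes were called, so the simulation does not give the error rate or the effect of scaling there. No pair of libraries agreed within sampling noise, but some pairs were much closer than others. By chi-square per degree of freedom, 4T1 libraries 5 and 6 were at 17.7. HC11 libraries 7 and 9 were at 51.1 and 8 and 10 at 51.65, while 5 and 8 were at 763.5. The labels do not say whether close libraries share a culture, and the test treated all 18 as independent. A level is CPM on TMM-scaled library sizes, and the floor is 3 counts, which covers counting error only.

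Members, classes and lists were chosen with earlier results of these data known. The genes named are the 6 line markers, the 4 largest rises and 4 largest falls of each class and the 3 largest changes of each family or list, taken from those called, with non-overlapping groups and log2 CPM averaging 2 or more over the 18 libraries, and members of the lists described. Of 218 genes used for the text, 77 fall outside that rule and were chosen after their values were seen, and the report marks those it describes. Alternatives were DESeq2 1.42.0, limma voom (3.58.1), other scalings, no filter, all 3 groups in the fit, and leaving out libraries. The fit without HC11 libraries 4 and 6 was added after the data were seen. Promoter sequences are from RefSeq, build GRCm38.p6, and no coordinate was converted between builds. Some results are not reported here.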

Additional observations from a re-analysis of the deposited data

Results flagged for a closer look

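In 30 of 432 groups of libraries examined, the highest or lowest library stood far from the others of its line by Dixon's criterion, which chance alone meets in about 1 in 20 groups. Of these, 8 were 4T1 library 2 at the top, for genes that HC11 held: Hoxb9 0.851 CPM, Tfap2b 0.682 CPM, Trp73 0.238 CPM, Foxd1 1.81 CPM, Hoxb3 0.738 CPM, Hoxb4 0.375 CPM, Plagl1 0.789 CPM and Epha7 0.175 CPM. 4T1 library 1 was highest for Hmga1 at 1106 CPM and for Hoxc8 at 0.0351 CPM, and lowest for Hoxd4 at 1.5 CPM. 4T1 library 4 was highest for Gata3 at 98.0 CPM, Esr1 at 4.91 CPM, Hoxa9 at 1.89 CPM and Cavin1 at 524 CPM. 4T1 library 6 was highest for Hoxc10 at 0.0121 CPM.

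Among HC11 libraries, library 1 was highest for Etv1 at 0.305 CPM, Hmga2 at 9.59 CPM, Scara3 at 0.267 CPM and Wnt7a at 0.216 CPM. Library 5 stood apart 3 times, highest for Sox9 at 429 CPM and Hoxd8 at 0.00562 CPM, and lowest for Postn at 181 CPM. Library 4 was highest for Foxc2 at 0.0544 CPM, Cdkn2a at 109 CPM and Nrg2 at 0.0381 CPM. Library 6 was highest for Gata4 at 0.0755 CPM and Gpc6 at 10.8 CPM, library 2 for Fmod at 19.6 CPM and library 7 for Cxcl2 at 0.288 CPM.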

How the results depend on the processing

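Of 5632 values for 217 tested genes under 26 alternatives, 5625 kept their side of the threshold, and no called value changed sign. Values that were not called could change sign. Over the fits that left out 1 library, Itga6 ran from -0.0991 to 0.0412 and Zeb1 from -0.146 to 0.551. The other 7 values were of 4 genes. Esr1 passed the test with limma voom (log2 fold change 1.10, adjusted p = 0.00815), without HC11 library 6 (1.00) and without HC11 libraries 4 and 6 (adjusted p = 0.00227). Zeb1 passed without HC11 libraries 4 and 6 (1.48) and Pdgfra with library sizes only (-0.36, adjusted p = 0.0417). Mki67 did not pass with all 3 groups in the fit (0.55, adjusted p = 0.130) or with library sizes only (0.32). With no filter on low counts, 42922 genes were tested, and 7989 were at least 4-fold apart, 2269 higher and 5720 lower in 4T1, with 142 receptors and 221 secreted genes lower. Leaving out each library in turn gave 16229 to 16916 called genes and 3724 to 4069 at least 4-fold apart. No paired analysis was possible because the labels carry no replicate numbers. At this depth, levels under about 0.02 CPM rest on a few counts.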
